A study of Mus musculus with 13 samples.

Results

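The MAPK feedback genes described here are Dusp4, Dusp5, Dusp6, Dusp9, Spry1, Spry2, Spry4, Spred1, Etv4 and Etv5. They were chosen by name, as the rows whose Ensembl identifier maps to these symbols, and they are 10 of the 38377 genes in the table of counts. Bulk RNA-seq covered 13 libraries from 2 kinds of female mouse stem cell. XEN cells, lines of extraembryonic endoderm grown in DMEM with serum, were wild type (2 libraries), carried a deletion of the paternal Xist allele (dXist, 3 libraries), were wild type and treated with 20 uM 5-aza-2'-deoxycytidine (Aza, an inhibitor of DNA methylation, 2 libraries), or carried the deletion and were treated (2 libraries). EpiSC, epiblast stem cells grown on matrigel in knockout DMEM with FGF2 and Activin, were wild type (2 libraries) or heterozygous for an Xist deletion (dXist, 2 libraries). Xist is the RNA that silences an X chromosome in female cells, and the series compared cells with and without it. Whether the libraries of a group came from separate clones or cultures was not given, so p-values refer to the spread among these libraries, which may be technical.

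Receptor tyrosine kinases signal through RAS, RAF and MEK to the kinase ERK, and active ERK switches on genes whose products damp the same pathway. DUSP proteins remove phosphate from MAP kinases, Sprouty and Spred proteins act upstream at the level of the receptor, RAS and RAF, and Etv4 and Etv5 are ETS transcription factors whose transcription follows FGF signalling. Dusp9 lies on the X chromosome, and in female pluripotent cells with both X chromosomes active its dose has been tied to lower MAPK signalling. EpiSC depend on FGF2 in the medium, whereas PDGF signalling through its receptor Pdgfra supports XEN cells.

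Levels are given in CPM, counts scaled to library size by TMM over the 13 libraries, and libraries are numbered as in the labels. Library totals were 5848454 to 35247432 counts. Mitochondrial rRNA and Rn7sk, which lack long poly(A) tails, made up 10.4% to 13.5% of 4 libraries, namely treated wild-type XEN 1 and 2, wild-type EpiSC 2 and dXist EpiSC 2. They made up 0.0152% to 0.279% of the other 9, so the former 4 are called total-like and the latter poly(A)-like. Xist stood at 1550 and 1586 CPM in wild-type XEN against 1.16 to 4.79 CPM in dXist XEN, and at 815 and 206 CPM in wild-type EpiSC against 0.435 and 0.276 CPM in dXist EpiSC. The library labelled treated dXist XEN 2 held 242 CPM of Xist, against 14.6 CPM in the library labelled treated dXist XEN 1. Both were above every untreated dXist XEN library, and the reason was not tested. Only the paternal allele is deleted, so the Xist level alone does not show whether the label is right. The Aza results in dXist XEN are also given without treated library 2. All 10 XEN markers were above 1 CPM in every XEN library, and all 10 EpiSC markers in every EpiSC library. That cut was also passed by 6 XEN markers in both wild-type EpiSC libraries and by 2 EpiSC markers in both wild-type XEN libraries. XEN markers summed to 17620 to 61195 CPM in XEN and 156.4 to 280.5 CPM in EpiSC. EpiSC markers summed to 1295 to 1956 CPM in EpiSC and 46.6 to 215.5 CPM in XEN. The EpiSC marker Dnmt3b overlapped, at 164.9 and 206.1 CPM in wild-type XEN and 177.2 and 154.3 CPM in wild-type EpiSC.

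RefSeq gave promoter sequence for 6 of the 10 genes. The following 3, each covering the 250 bases before an annotated start on GRCm38.p6, are shown because they were the promoters of the 6 genes that held either of 2 motifs linked to ERK output. Capitals mark TGAATG on either strand (written CATTCA on the other strand), the core of the site of Capicua, a repressor that ERK relieves, and CArG boxes, the sites of the serum response factor. The sequences run 5′ to 3′ on the gene's own strand.
Dusp5 promoter, chr19:53528895-53529144, plus strand: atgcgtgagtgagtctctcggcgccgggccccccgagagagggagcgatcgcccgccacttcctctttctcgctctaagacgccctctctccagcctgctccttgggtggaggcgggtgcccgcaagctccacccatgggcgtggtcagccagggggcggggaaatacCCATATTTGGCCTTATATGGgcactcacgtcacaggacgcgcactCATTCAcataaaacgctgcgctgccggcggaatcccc
Dusp6 promoter, chr10:99262981-99263230, plus strand: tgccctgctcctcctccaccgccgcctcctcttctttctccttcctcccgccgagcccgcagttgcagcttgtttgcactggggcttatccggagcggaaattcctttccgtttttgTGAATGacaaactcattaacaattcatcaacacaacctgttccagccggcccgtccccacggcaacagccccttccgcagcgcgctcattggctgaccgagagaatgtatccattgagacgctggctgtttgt
Etv5 promoter, second annotated start, chr16:22438369-22438618, minus strand: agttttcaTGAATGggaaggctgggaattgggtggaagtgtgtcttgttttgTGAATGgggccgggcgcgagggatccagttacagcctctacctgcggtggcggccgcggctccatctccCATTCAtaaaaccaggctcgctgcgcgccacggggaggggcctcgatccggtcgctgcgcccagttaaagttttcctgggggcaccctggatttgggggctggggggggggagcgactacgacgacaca

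The Dusp5 promoter held 2 CArG boxes, CCATATTTGG and CCTTATATGG, side by side with no overlap and starting 82 and 72 bases before the start, together with 1 TGAATG. The Dusp6 promoter held 1 TGAATG, 133 bases before the start. The promoter of the second Etv5 start held 3. Among 32851 mouse promoters of the same length, 10.9% held TGAATG and 1.47% held a CArG box. CCGGAA, an ETS core, was in 12% of promoters and TGANTCA, the AP-1 site, in 6.75%, and neither stood in a window of these 6 genes. The motifs were picked after the sequences and values were known, and a match in letters is a description and not a site in use.

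Of the phosphatases, Dusp4 (a nuclear enzyme, ENSMUSG00000031530) lies at 8:34807297-34819894. Dusp5 (nuclear and directed at ERK, ENSMUSG00000034765) lies at 19:53529109-53542431. Dusp6 (cytoplasmic and directed at ERK, ENSMUSG00000019960) lies at 10:99263231-99267489, and Dusp9 (cytoplasmic, ENSMUSG00000031383) at X:73639419-73643514. Of the inhibitors, Spry1 (ENSMUSG00000037211) lies at 3:37639947-37644598, Spry2 (ENSMUSG00000022114) at 14:105891947-105896819, and Spry4 carries the identifier ENSMUSG00000024427. Spred1 (ENSMUSG00000027351) lies at 2:117121374-117182279. The transcription factor genes Etv4 (ENSMUSG00000017724) and Etv5 (ENSMUSG00000013089) lie at 11:101769742-101785371 and 16:22381309-22439719. Dusp5 overlaps AC137853.2 and Spry1 overlaps Gm42922, each on the opposite strand, and the counting strand was not given, so reads of those pairs cannot be told apart.

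**Figure D1:**
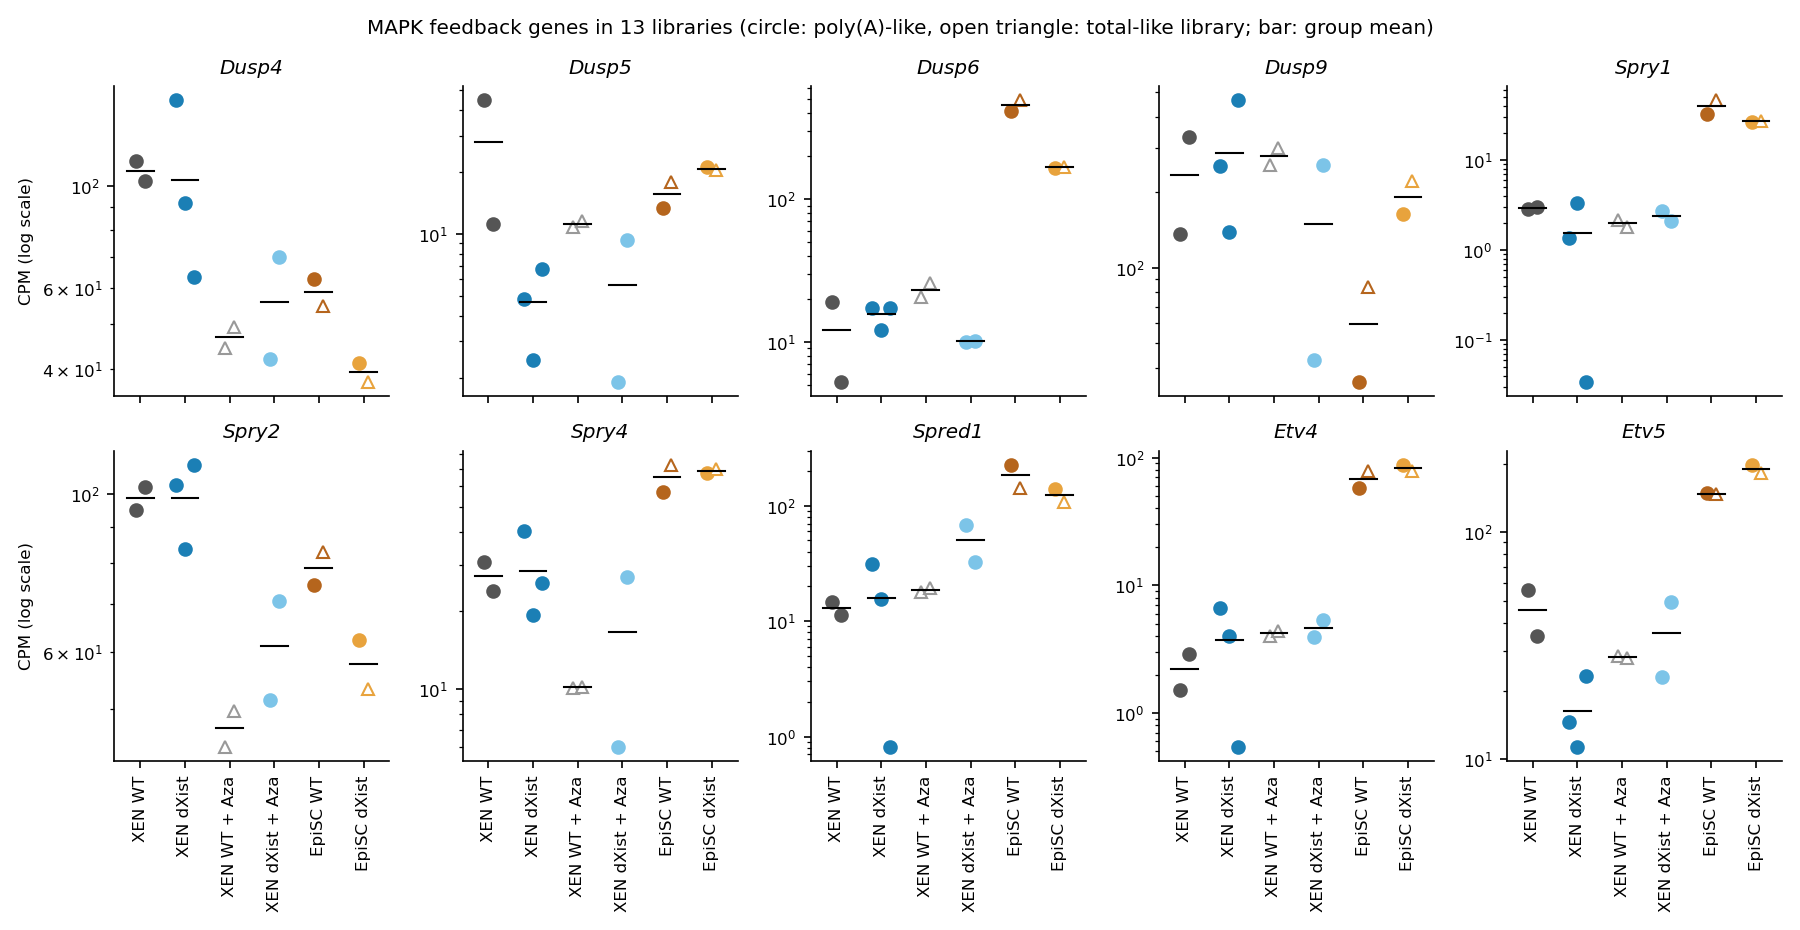
CPM of each of the 10 genes in each of the 13 libraries, on a log axis that differs between panels, with circles for poly(A)-like and open triangles for total-like libraries and a bar at each group mean. Dusp6, Spry1, Spry4, Spred1, Etv4 and Etv5 sit higher in all 4 EpiSC libraries than in all 9 XEN libraries, and Dusp9 spans 43.0 to 465.2 CPM within XEN.

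Which feedback genes had the most RNA in each cell type was read from CPM per kilobase of exon. In wild-type XEN Dusp9 led at 86.1 ± 50.8 CPM per kb (mean ± SD, n = 2), followed by Spry2 at 47.3 ± 2.58 and Dusp4 at 39.3 ± 2.73 CPM per kb. The libraries of these 3 genes did not overlap in level. Dusp5 (11.3 ± 9.59) and Etv5 (11.0 ± 3.53 CPM per kb) came next and overlapped, as did Spry4 with Dusp6 and Dusp6 with Spred1, and Spry1 and Etv4 were lowest at 1.01 ± 0.0364 and 0.710 ± 0.318 CPM per kb. Dusp9, Spry2 and Dusp4 held ranks 1 to 3 in each of the 4 XEN groups.

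Wild-type EpiSC had another order. Dusp6 led at 144.2 ± 18.4 CPM per kb (n = 2), clear of Spry2 at 37.7 ± 2.84 and Etv5 at 36.0 ± 0.493 CPM per kb, which overlapped each other. Spred1, Etv4, Dusp9 and Dusp4 followed at 27.1 to 21.5 CPM per kb, each overlapping the next, and Dusp5 was lowest at 6.30 ± 1.25 CPM per kb. In dXist EpiSC Dusp9 stood first at 70.5 ± 14.8 CPM per kb and Dusp6 second at 53.3 ± 0.692 CPM per kb, without overlap.

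Against wild-type XEN, wild-type EpiSC held more RNA of 6 of the 10 feedback genes and less of 1. Dusp6 and both ETS factors rose, as did the inhibitors Spry1, Spry4 and Spred1, and Dusp9 fell. The test was edgeR's quasi-likelihood test on the 9 untreated libraries with Benjamini-Hochberg adjustment over 19733 genes, and a gene was called at an adjusted p under 0.05. Of all genes tested 30.8% were called, 16.8% higher and 14.1% lower in EpiSC. The median log2 fold change was 1.48 over the members and 0.13 over all genes. The libraries of both groups did not overlap for 9 of the 10 members, against 66.4% of all genes.

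Among the phosphatases Dusp6 changed most. Wild-type XEN held 19.1 CPM in library 1 and 5.23 CPM in library 2, and wild-type EpiSC held 410.9 and 492.6 CPM. Every EpiSC library lay far above every XEN library, a 37.2-fold difference of means and a log2 fold change of 5.21 (SE 0.60, edgeR adjusted p = 0.000419). Dusp9 went the other way, at 136.7 and 332.1 CPM in XEN against 35.0 and 83.8 CPM in EpiSC. Both EpiSC libraries were below both XEN libraries, with a 3.95-fold lower mean and a log2 fold change of -1.98 (SE 0.65, edgeR adjusted p = 0.0447). Dusp4 stood at 113 and 102.4 CPM in XEN and 62.7 and 54.9 CPM in EpiSC, and its log2 fold change of -0.88 (SE 0.39) was not called (edgeR adjusted p = 0.110). Dusp5 at 44.7 and 11.1 CPM in XEN and 13.4 and 17.8 CPM in EpiSC overlapped between the cell types.

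The inhibitors split. Spry1 was at 2.85 and 2.997 CPM in XEN and at 32.9 and 46.6 CPM in EpiSC, a log2 fold change of 3.76 (SE 1.19, edgeR adjusted p = 0.0410). Spred1, which holds RAF back, was at 14.5 and 11.3 CPM in XEN and at 226.8 and 141.4 CPM in EpiSC, a log2 fold change of 3.83 (SE 1.20, edgeR adjusted p = 0.0419). By group means the difference was 13.6-fold for Spry1 and 14.3-fold for Spred1, with no overlap of libraries. Spry4, at 30.6 and 23.9 CPM in XEN and 57.2 and 72.5 CPM in EpiSC, rose 2.38-fold (log2 fold change 1.25, SE 0.37, edgeR adjusted p = 0.0314). Spry2 was the most abundant Sprouty RNA in wild-type cells of both types, at 94.9 and 102.5 CPM in XEN and 74.5 and 82.9 CPM in EpiSC. It did not pass (log2 fold change -0.33, SE 0.27, edgeR adjusted p = 0.355).

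Both ETS factors were higher in EpiSC. Etv4 was low in XEN, at 1.51 and 2.90 CPM, and reached 57.7 and 78.8 CPM in EpiSC, a 31.0-fold difference of means (log2 fold change 4.95, SE 0.95, edgeR adjusted p = 0.00525). Etv5 was already present in XEN, at 55.5 and 35.0 CPM, and stood at 149.2 and 146.4 CPM in EpiSC (3.27-fold, log2 fold change 1.70, SE 0.38, edgeR adjusted p = 0.00976). Etv4 thus separated the cell types by a wider ratio than its relative.

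The calls differed in how far they depended on single libraries and settings. Dusp6 and Etv4 were called under all 13 settings tried, with adjusted p of at most 0.00892 for Dusp6 and 0.0491 for Etv4. Spry1, Spred1 and Spry4 each missed the threshold when any 1 of the 4 compared libraries was left out (edgeR adjusted p = 0.101 to 0.169 for Spry1, 0.0756 to 0.170 for Spred1 and 0.0526 to 0.129 for Spry4). Etv5 missed it without wild-type XEN library 2 (0.0662). Dusp9 missed it without wild-type XEN library 2 (0.281), wild-type EpiSC library 1 (0.232) or wild-type EpiSC library 2 (0.0502), and under RLE scaling (0.0558), scaling on protein-coding genes (0.0519) or a library type term (0.0675). Spry4 also missed it with the library type term (0.209). Dusp4 passed in 1 of 13 settings, as lower in EpiSC with a replicate block (-0.88, SE 0.27, edgeR adjusted p = 0.0297). The number of higher and lower members together went from 7 to between 2 and 4 with 1 library left out. In the poly(A)-like untreated libraries alone, chosen after the data were seen, the EpiSC group was 1 library, assumed to vary like the other groups. There Dusp6 and Etv4 were the 2 members called, where 9.25% of all genes were called higher.

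**Figure D2:**
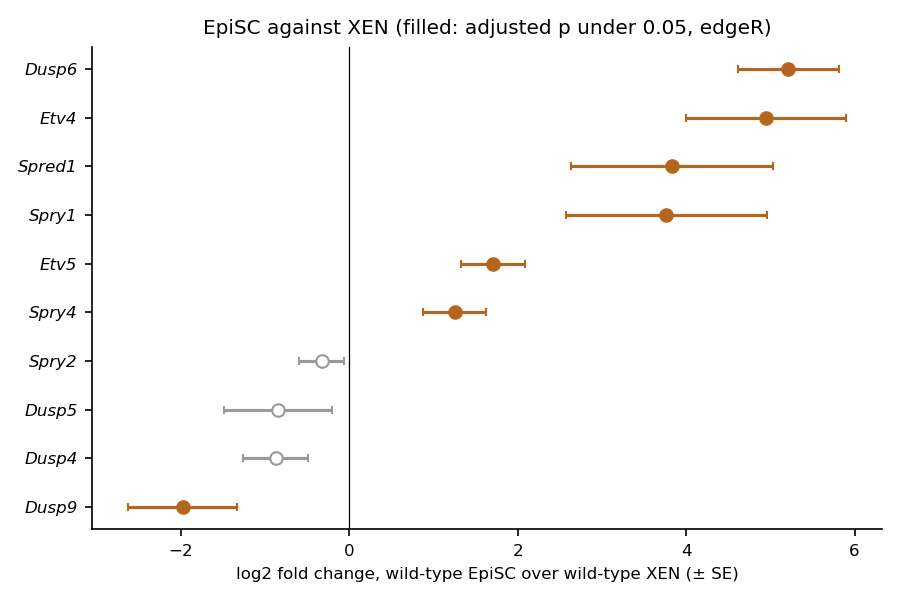
Log2 fold change of wild-type EpiSC (n = 2) over wild-type XEN (n = 2) for the 10 genes, with bars of 1 standard error from edgeR and filled points at an adjusted p under 0.05. Dusp6 (5.21) and Etv4 (4.95) lie farthest to the right and Dusp9 (-1.98) is the filled point on the left.

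Other parts of the pathway differed in mixed directions between the same libraries. Of 19 tested ligand genes 10 were higher and 3 lower in EpiSC, with a median log2 fold change of 3.96. Fgf5, an epiblast ligand, had 0 counts in both XEN libraries and 32.2 and 17.9 CPM in EpiSC (edgeR adjusted p = 0.000440), whereas Fgf3 went from 29.6 and 27.8 CPM in XEN to 0 and 0.0968 CPM in EpiSC (edgeR adjusted p = 0.00104). Fgf10 fell by 5.30 on the log2 scale (SE 0.75, edgeR adjusted p = 0.00115). Of 15 receptor genes 6 were higher and 6 lower, and those with the smallest adjusted p were Pdgfra, Kit and Fgfr3, all lower in EpiSC. Pdgfra, the PDGF receptor that marks XEN cells and is also in the XEN marker list, was at 601.9 and 628.8 CPM in XEN and at 2.23 and 1.65 CPM in EpiSC (log2 fold change -8.30, SE 0.57, edgeR adjusted p = 5.69e-05). Kit was at 569.9 and 534.1 CPM in XEN and at 9.31 and 8.42 CPM in EpiSC, and Fgfr3 at 160.3 and 160.2 CPM in XEN and 0.0564 and 0.629 CPM in EpiSC.

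Of 22 genes of the ERK cascade 3 were higher and 5 lower in EpiSC (median log2 fold change -0.24). The adaptor gene Frs3 fell by 3.68 (SE 0.66, edgeR adjusted p = 0.00359) and the kinase gene Rps6ka1 fell by 1.82 on the log2 scale (SE 0.40, edgeR adjusted p = 0.00929). Of 22 other genes in a list of ERK targets 3 were higher and 9 lower (median -0.58). That list also holds Cic, the gene of Capicua, and transcription factor genes such as Elk1, Elk4 and Srf. Its counts are therefore not a measure of ERK output alone. Etv1, the third gene of the Etv4 and Etv5 subfamily, had 0 and 1 counts in the XEN libraries and 185.1 and 78.8 CPM in EpiSC (edgeR adjusted p = 5.69e-05). The cell cycle gene Ccnd1 rose by 7.97 (SE 0.77, edgeR adjusted p = 0.000185), while Ier2, an immediate early gene, fell by 2.96 on the log2 scale (SE 0.40, edgeR adjusted p = 0.000892). Of 18 other phosphatases and inhibitors 5 were higher and 3 lower (median 0.75), led by Dusp8 (-4.54, SE 0.48), Dusp14 (4.50, SE 0.53) and Dab2 (-3.37, SE 0.60). In bulk RNA, fewer cells of a type and less RNA per cell cannot be told apart, and 8 fibroblast or feeder markers together stood at 18.2 and 16.5 CPM in wild-type XEN and at 797.1 and 672.8 CPM in wild-type EpiSC. The part of those markers in the results was not tested.

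In EpiSC with the Xist deletion Dusp9 was the member with the largest positive log2 difference from wild type and Dusp6 the one with the largest negative. Dusp9 stood at 35.0 and 83.8 CPM in wild type against 163.5 and 220.6 CPM in dXist. Both dXist libraries were above both wild-type libraries, 3.23-fold by means, with a log2 fold change of 1.71 (SE 0.50) that was not called (edgeR adjusted p = 0.370 over 17132 genes). Dusp6 stood at 410.9 and 492.6 CPM in wild type against 165.5 and 168.6 CPM in dXist. Both dXist libraries were below both wild-type libraries, 2.71-fold by means, with a log2 fold change of -1.41 (SE 0.30) that was not called either (edgeR adjusted p = 0.246).

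With 2 residual degrees of freedom edgeR called 0.00% of all genes, while 1741 genes (10.2%) had an unadjusted p under 0.05 and DESeq2 called 494. Thus 0 of the 10 members carried a call, and the 2 members with an unadjusted p under 0.05 were Dusp9 and Dusp6. DESeq2 called both (adjusted p = 0.0154 for Dusp9 and 0.000698 for Dusp6). Each group paired a poly(A)-like library 1 with a total-like library 2, so the difference was also taken within each kind of library. Dusp9 was higher in dXist by 2.21 on the log2(CPM + 0.5) scale in the poly(A)-like pair and by 1.39 in the total-like pair, and Dusp6 differed by -1.31 and -1.54. With the library number, which here is also the library type, as a term of the edgeR fit, Dusp9 was called at 1.83 (SE 0.32, adjusted p = 6.8e-07) and Dusp6 at -1.41 (SE 0.35, adjusted p = 0.00165). That fit leaves 1 residual degree of freedom and called 4.91% of all genes higher and 6.53% lower. Its p-values follow a normal distribution, as the spread was taken from all genes together. They therefore do not measure the spread of a single gene among its own libraries. Over the alternatives the adjusted p ran from 6.8e-07 to 1 for Dusp9 and from 0.000698 to 1 for Dusp6.

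The other 8 members did not pass in any fit of this comparison. Libraries of both groups did not overlap for 8 of the 10 members, against 42.8% of all genes. In dXist, Dusp5, Dusp9 and Etv5 were higher and Dusp4, Dusp6, Spry1, Spry2 and Spred1 lower in both libraries. The Sprouty and Spred genes without overlap differed by -0.42 to -0.55 on the log2 scale and Dusp4 by -0.55, and Dusp5 and Etv5 differed by 0.44 and 0.39. Spry4 and Etv4 overlapped between the groups, at 57.2 to 72.5 CPM for Spry4 and 57.7 to 87.9 CPM for Etv4 over all 4 EpiSC libraries. The median log2 fold change was -0.16 over the members and -0.00326 over all genes.

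**Figure D3:**
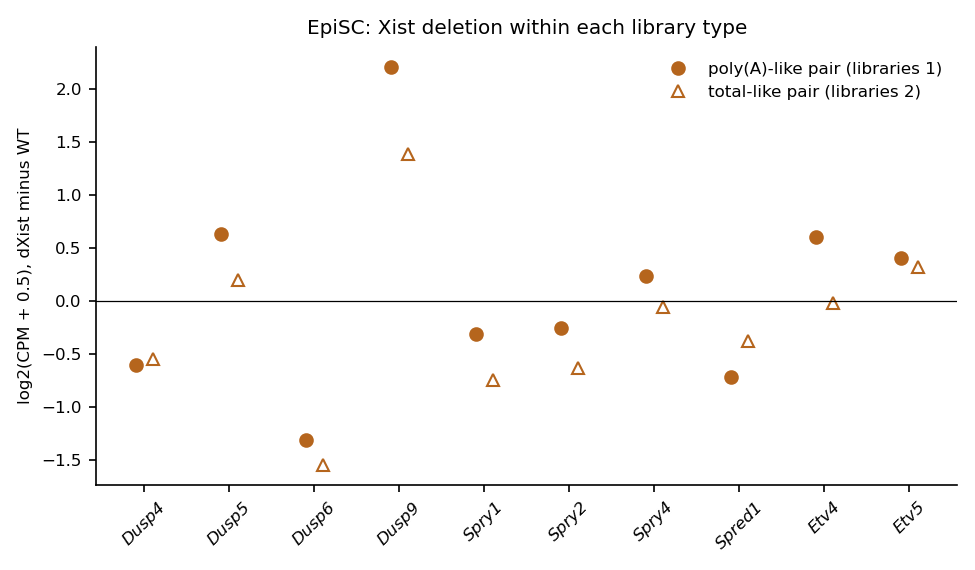
Difference of log2(CPM + 0.5) between dXist and wild-type EpiSC for the 10 genes, with the poly(A)-like pair of libraries as filled circles and the total-like pair as open triangles. Dusp9 lies above 0 in both pairs (2.21 and 1.39) and Dusp6 below 0 in both (-1.31 and -1.54), and Spry4 and Etv4 lie on both sides of 0.

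Members of the pathway lists were counted in the same fit with library number as a term, and edgeR called none of them without that term. The same limit on the p-values of that fit holds for these genes. Of 18 ligand genes 1 was higher and 8 were lower in dXist EpiSC. Areg, an EGF receptor ligand, was at 9.62 and 3.58 CPM in wild type and 0.869 and 0.598 CPM in dXist (log2 fold change -3.07, SE 0.44, edgeR adjusted p = 3.43e-10). Fgf1 and Pdgfc differed by -2.98 (SE 0.44) and -1.96 (SE 0.38). Of 13 receptor genes Fgfr4 was higher, from 0.536 and 0.871 CPM to 3.69 and 3.82 CPM (log2 fold change 2.49, SE 0.44, edgeR adjusted p = 1.08e-06), and 3 were lower, with Met (-1.24, SE 0.35) and Pdgfrb (-1.08, SE 0.36) leading. Of 22 cascade genes 2 were higher, Map2k2 (1.10, SE 0.30) and Rps6ka2 (1.002, SE 0.29), and Sos1 was lower (-0.82, SE 0.30).

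Genes of the ERK target list, which has no members in it, were lower in dXist where they were called. Of 21 tested 0 were higher and 5 were lower with the library number as a term. Egr1, an immediate early transcription factor, was at 37.0 and 13.7 CPM in wild type and 3.69 and 2.48 CPM in dXist (log2 fold change -2.89, SE 0.37, edgeR adjusted p = 2.66e-12). Epha4 differed by -1.62 (SE 0.30) and Ccnd1 by -1.55 (SE 0.31). Of 17 other phosphatases and inhibitors Dusp14 was higher (1.14, SE 0.30) and Spred3 lower (-0.86, SE 0.30). Of the 8 fibroblast or feeder markers 6 were lower in the same fit, and their sum stood at 797.1 and 672.8 CPM in wild type against 228.4 and 166 CPM in dXist, with Col3a1 at a log2 fold change of -4.74 (SE 0.34). Pdgfrb is also in that marker list. Of the 10 EpiSC markers Pou5f1 (1.14, SE 0.36) and Otx2 (1.02, SE 0.29) were higher, with sums of 1773 and 1295 CPM in wild type against 1956 and 1515 CPM in dXist. The naive pluripotency marker Esrrb (1.15, SE 0.37) and the trophoblast marker Tfap2c (1.69, SE 0.38) were also higher. The germ layer marker Sox1 (-2.15, SE 0.37) and the XEN markers Col4a1 (-1.15, SE 0.32) and Cubn (-1.49, SE 0.47) were lower, and 8 germ layer markers summed to 26.8 and 18 CPM in wild type against 7.80 and 6.35 CPM in dXist. The part of these markers in the results was not tested.

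In XEN the Xist deletion left no member with a call by edgeR. Over 18393 genes 0.0217% were called, and 0 of the 10 members. Xist itself was not called in this fit (log2 fold change -9.155, SE 1.175, edgeR adjusted p = 0.0602). The lack of a call therefore does not show that a member was unchanged. Without dXist XEN library 3 edgeR called 154 genes higher and 356 lower of 17800. An unadjusted p under 0.05 was held by 10.7% of all genes and by 2 members, Dusp5 and Etv5. The same 2 genes were the members whose libraries did not overlap between the groups, against 28.3% of all genes. For Dusp5 the wild-type libraries held 44.7 and 11.1 CPM, and the dXist libraries held 4.84, 2.43 and 6.72 CPM. All 3 dXist libraries were below both wild-type libraries. The wild-type libraries were far apart, and the log2 fold change of -2.57 (SE 0.77) was not called (edgeR adjusted p = 0.356). DESeq2 called it (adjusted p = 0.0275), along with 455 of 17599 genes in total. edgeR without a filter on low counts also called it (adjusted p = 0.00247), where 303 of 35682 genes were called higher and 381 lower. Without wild-type library 1 the difference was -1.28 (SE 0.88) and was not called. Etv5 was at 55.5 and 35.0 CPM in wild type against 14.7, 11.4 and 23.2 CPM in dXist. All 3 dXist libraries were again below both wild-type libraries, with a log2 fold change of -1.46 (SE 0.45, edgeR adjusted p = 0.360, and 0.0736 to 0.792 over the alternatives).

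The X-linked Dusp9 did not separate by genotype in XEN. It was at 136.7 and 332.1 CPM in wild type against 254.1, 138.9 and 465.2 CPM in dXist, and the groups overlapped over most of their range (log2 fold change 0.28, SE 0.74, edgeR adjusted p = 0.927). Dusp6 was at 19.1 and 5.23 CPM in wild type against 17.3, 12.2 and 17.3 CPM in dXist, also with overlap. dXist library 3 held the lowest level of 3 members among the 9 XEN libraries, Spry1 (1 count, 0.0339 CPM), Spred1 (0.814 CPM) and Etv4 (0.543 CPM), while libraries 1 and 2 held 1.35 and 3.33 CPM of Spry1, 31.2 and 15.7 CPM of Spred1 and 6.64 and 3.999 CPM of Etv4. The same library held the highest Dusp9 and Spry2 of the 9. Spry2 was the steadiest member, at 83.7 to 110 CPM over the 5 untreated XEN libraries.

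The effect of the deletion was also compared between cell types by an interaction term over the 9 untreated libraries. edgeR called 0.0101% of genes and 0 of the 10 members. An unadjusted p under 0.05 was held by 10.3% of all genes and by 3 members. These were Dusp5, with a deletion effect higher in EpiSC than in XEN by 3.03 on the log2 scale (SE 0.88, adjusted p = 0.324), Etv5, higher by 1.86 (SE 0.50, adjusted p = 0.308), and Dusp6, with a difference of -1.76 (SE 0.69, adjusted p = 0.436). DESeq2 called Dusp5 (adjusted p = 0.0443), as did edgeR without the filter on low counts (0.00607). Over all genes DESeq2 called 403 of 16550, and edgeR without the filter called 281 higher and 335 lower of 34931. edgeR called Etv5 in 3 of 17 settings: without dXist XEN library 3 (2.20, SE 0.41, adjusted p = 0.0275), with the replicate block (2.17, SE 0.39, adjusted p = 0.0238) and without the filter (1.87, SE 0.56, adjusted p = 0.0471). Over all genes the first of these settings called 386 higher and 284 lower of 19468, and the block called 409 higher and 334 lower of 19733. For Dusp9 the difference was 1.43 (SE 0.85, edgeR adjusted p = 0.568), so the deletion was not shown to act on it differently in EpiSC and XEN.

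Aza treatment of wild-type XEN was compared with untreated wild-type XEN. Here the drug, the library type and the depth cannot be told apart. Both treated libraries were total-like, with 5848454 and 9181835 counts, and both untreated ones poly(A)-like, with 30841285 and 35247432 counts. edgeR called 0.582% of 18393 genes and 0 of the 10 members, and DESeq2 also called 0. The 2 members with an unadjusted p under 0.05 were Spry2 and Dusp4, where 12.4% of all genes passed that cut. Spry2 was at 94.9 and 102.5 CPM untreated and at 44.2 and 49.6 CPM treated (log2 fold change -0.99, SE 0.33, edgeR adjusted p = 0.274). Dusp4 was at 113 and 102.4 CPM untreated and at 44.4 and 49.5 CPM treated (log2 fold change -1.12, SE 0.44, edgeR adjusted p = 0.351). Spry4 was at 30.6 and 23.9 CPM untreated and at 10.1 and 10.2 CPM treated (log2 fold change -1.34, SE 0.66, edgeR adjusted p = 0.453). The treated pair was below the untreated pair for all 3 genes. Treated and untreated libraries did not overlap for 8 of the 10 members, against 59.8% of all genes. With the spread taken from these 4 libraries alone, all 3 were called lower (edgeR adjusted p = 0.0386 for Dusp4, 0.0458 for Spry2 and 0.0470 for Spry4), where 1.85% of genes were called lower. The sum of 10 XEN markers was 37320 and 35419 CPM in the treated pair and 40458 and 61195 CPM in the untreated pair.

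Dusp6, Etv4 and Spred1 were the members higher in both treated wild-type libraries. Dusp6 was at 20.8 and 25.7 CPM treated against 19.1 and 5.23 CPM untreated (log2 fold change 1.03, SE 0.57, edgeR adjusted p = 0.502). Etv4 was at 3.99 and 4.41 CPM treated (24 and 41 counts) and 1.51 and 2.90 CPM untreated. Spred1 was at 17.8 and 19.4 CPM treated and 14.5 and 11.3 CPM untreated. Dusp9 lay between the untreated libraries, at 255.6 and 301.0 CPM.

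In dXist XEN both treated and untreated libraries were poly(A)-like. edgeR called 0.0761% of genes and 0 of the 10 members, and DESeq2 also called 0 members. An unadjusted p under 0.05 was held by 26.8% of all genes and by 3 members (Dusp4, Spry2 and Etv5). Libraries did not overlap for 3 members, against 42.2% of all genes. Spry2 was at 51.4 and 70.8 CPM in treated libraries 1 and 2 and at 102.9, 83.7 and 110 CPM in untreated libraries 1 to 3 (log2 fold change -0.84, SE 0.30, edgeR adjusted p = 0.128). Dusp6 was at 9.99 and 10.2 CPM treated and at 17.3, 12.2 and 17.3 CPM untreated (log2 fold change -0.78, SE 0.53, edgeR adjusted p = 0.359). Spred1 was at 68.4 and 32.4 CPM treated, above 31.2, 15.7 and 0.814 CPM untreated (log2 fold change 1.52, SE 0.95, edgeR adjusted p = 0.321). For Spry2 and Dusp6 both treated libraries were lower, and for Spred1 both were higher, than every untreated library. Without treated library 2 the log2 fold change was -0.87 for Dusp6 (SE 0.66, edgeR adjusted p = 0.366), 1.90 for Spred1 (SE 1.19, edgeR adjusted p = 0.279) and -1.17 for Spry2, with library 1 outside the untreated range for each of these 3 genes.

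The treated dXist pair was unequal. By label, treated libraries 1 and 2 share a name with untreated libraries 1 and 2, a pairing the main fit did not use. Treated minus untreated log2(CPM + 0.5) was -2.55 and 0.88 for Dusp9 and -2.65 and 0.48 for Spry4. Signs also differed for Dusp5, Spry1 and Etv4, and were alike for Dusp4, Dusp6, Spry2, Spred1 and Etv5. Treated library 1 held the lowest level of Dusp4, Dusp5, Dusp9 and Spry4 among the 9 XEN libraries, with Dusp9 at 43.0 CPM against 255.7 CPM in treated library 2 and Spry4 at 6.01 against 27.0 CPM. Its 10 XEN markers summed to 17620 CPM, against 42825 CPM in treated library 2, whose Xist level was the higher of the pair. Without library 2, and with the lone library assumed to vary like the other groups, edgeR called 4 members lower, where 13.7% of all genes were called lower. They were Spry4 (log2 fold change -2.46, SE 0.50, adjusted p = 0.0116), Spry2 (-1.17, SE 0.29, adjusted p = 0.0228), Dusp9 (-2.97, SE 0.83, adjusted p = 0.0357) and Dusp4 (-1.51, SE 0.47, adjusted p = 0.0499). Whether the lower XEN marker level of library 1 had a part in these 4 differences was not tested.

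**Figure D4:**
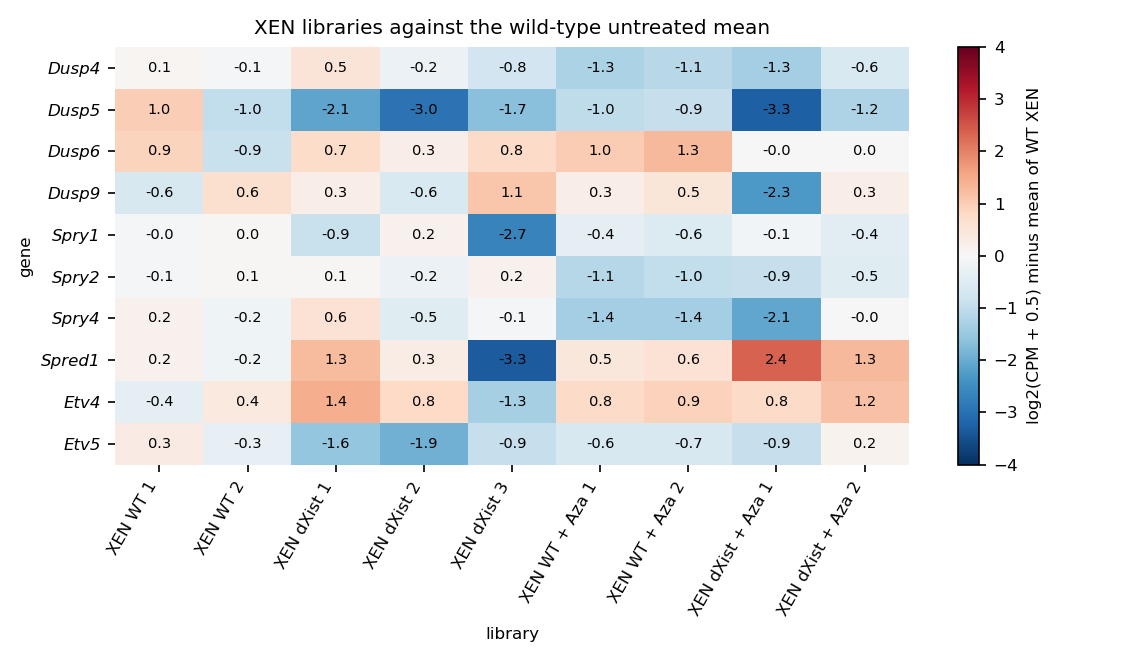
Log2(CPM + 0.5) of each gene in each of the 9 XEN libraries minus the mean of both untreated wild-type libraries, in blue where lower and red where higher. Dusp5 is lower in all 3 untreated dXist libraries, Spry1 and Spred1 are lowest in dXist library 3, and treated dXist library 1 is lowest for Dusp4, Dusp5, Dusp9 and Spry4.

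Across all 13 libraries the level of Dusp9 followed none of the other members closely. The Pearson correlation of log2(CPM + 0.5) with Dusp9 ran from -0.69 for Spred1 to 0.19 for Dusp4, as a description over 13 libraries that share cell type and library type. Among 14242 other genes with a mean of at least 1 CPM, those with the pattern most like that of Dusp9 were Gucd1 (r = 0.93), Borcs8 (0.93) and Nprl3 (0.92), none of them on the X. In XEN the ratio of the highest to the lowest library ran from 2.49 for Spry2 to 98.0 for Spry1, and it was 83.9 for Spred1, 23.5 for Dusp5, 12.2 for Etv4 and 10.8 for Dusp9. In EpiSC the highest library exceeded the lowest 1.27-fold for Spry4 and 6.31-fold for Dusp9, which was the most variable member among the 4 EpiSC libraries.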

How the data were processed

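RNA was sequenced in bulk from 13 mouse libraries. The deposited table holds raw counts per gene, made with STAR 2.7.9a and featureCounts 2.0.1 after FastQC on GRCm38 (mm10), per the submitters' processing notes. For the counting, strand, multi-mapped reads and annotation were not given in the sources used here. Kits (NEBNext Ultra, TruSeq stranded) are named in the labels for the series as a whole. GENCODE vM21 gave symbols and positions for 38240 identifiers.

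The tests were run with edgeR 4.0.16 in R 4.3.3 (filterByExpr, TMM scaling, robust quasi-likelihood F test, Benjamini-Hochberg adjustment over all genes tested, calls under 0.05). The 9 XEN libraries, the 4 EpiSC libraries and the 9 untreated libraries each had 1 fit. A standard error is the size of the log2 fold change divided by the root of its F statistic. An offset of 0.5 CPM preceded log2. Fold differences are ratios of mean CPM. DESeq2 1.42.0, other scalings (RLE, and protein-coding nuclear genes), no filter, a replicate block, a library type term, the compared groups alone and leaving out each library were alternatives. The genes, pathway lists, markers and tests were chosen with earlier results of these data known. Named genes are the 10 members and, of each pathway list, up to 3 called genes with the smallest adjusted p. The result of 1 gene that met this rule is not reported here. Totals of 5848454 to 35247432 counts put 3 counts at 0.498 to 0.0815 CPM. Some of the fits were also run on simulated counts with the same spread for every gene and no difference of library type. That run does not show how the fits perform on libraries as uneven as these.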

Additional observations from a re-analysis of the deposited data

Results flagged for a closer look

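Among the 10 members Dusp6 alone moved to opposite sides of its untreated libraries under Aza in the 2 XEN genotypes, while Spry2 and Spred1 kept the same side. In wild type both treated libraries (20.8 and 25.7 CPM) were above both untreated ones (19.1 and 5.23 CPM), with a log2 fold change of 1.03. In dXist both treated libraries (9.99 and 10.2 CPM) were below all 3 untreated ones (12.2 to 17.3 CPM), with a log2 fold change of -0.78. The treated library at 10.2 CPM is treated dXist library 2, which held 242 CPM of Xist against 14.6 CPM in treated library 1. Without it the dXist value was -0.87 (SE 0.66, edgeR adjusted p = 0.366). The responses thus differed by 1.80 on the log2 scale. This difference was not tested, and the treated wild-type libraries were total-like and of lower depth, while the other XEN libraries were poly(A)-like. The nearest wild-type libraries were close, at 20.8 CPM treated and 19.1 CPM untreated. Treated and untreated libraries also lacked overlap for 59.8% of all genes with the wild-type genotype and 42.2% with the deletion. How many of all genes lay on opposite sides was not counted, so it is not shown that Dusp6 stands out from them.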

How the results depend on the processing

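No called member changed direction under any alternative run, and the 37 sign changes among the member values were all of values that were not called. The cause of each change was not tested. The main fits called 4, 0 and 2 genes for dXist in XEN, dXist in EpiSC and the difference of deletion effects. DESeq2 called 455 of 17599, 494 of 17346 and 403 of 16550. Without the filter edgeR called 303 higher and 381 lower of 35682, 146 and 530 of 30248, and 281 and 335 of 34931. With the replicate block 841 and 1119 of 17132 were called in EpiSC, and 409 and 334 of 19733 for the difference. For Aza in dXist XEN, 1377 and 1373 of 35682 were called without the filter. The number of members called went from 0 to 1 by DESeq2 and to 1 without the filter on low counts for dXist against wild type in XEN, and from 0 to 2 with each of DESeq2, no filter and the replicate block for dXist in EpiSC. It went from 0 to 3 with the 2 compared groups alone for Aza in wild-type XEN, where 1.85% of all genes were called lower. For Aza in dXist XEN it went from 0 to 1 without the filter, and it was 0 to 4 with 1 library left out. For EpiSC against XEN it went from 7 to 2 in the poly(A)-like untreated libraries and was 2 to 4 with 1 library left out. For the difference of the deletion effects it went from 0 to 1 by DESeq2, 2 without the filter and 1 with the replicate block, and it was 0 to 1 with 1 library left out.

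The libraries of EpiSC that share a number deviated together (r = 0.77), and number and library type coincide there. In XEN same-number correlations ran from -0.142 to 0.121, and the main fits did not use the numbers as pairs. The labels of dXist XEN libraries 1 and 2 do share a name with treated libraries 1 and 2. With the replicate block Dusp4 in dXist XEN stood at 0.17, Spry1 and Etv4 under Aza in dXist XEN at -0.0598 and -0.37, and the Spry1 and Spry4 differences of deletion effects at -0.0861 and -0.00497. In the library pairs numbered 1 and 2 with the block, chosen after seeing the data, Etv4 under Aza in dXist XEN stood at -0.25.

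Spry2 in dXist XEN, at -0.00274, stood at 0.00819 by DESeq2, 0.00895 with RLE scaling, 0.00312 with scaling on protein-coding genes, 0.0305 without the filter and 0.00287 with the library type term. With that term Dusp9 under Aza in wild-type XEN stood at -0.60. With 1 library left out, log2 fold changes in dXist XEN ran from -0.64 to 0.84 for Spred1, -0.29 to 1.11 for Dusp9, -0.25 to 1.55 for Dusp6, -0.46 to 0.16 for Dusp4, -0.10 to 0.10 for Spry2 and -0.27 to 0.26 for Spry4. In dXist EpiSC Spry4 ran from -0.0720 to 0.30, and in EpiSC against XEN Dusp5 ran from -1.46 to 0.48. Under Aza in wild-type XEN Dusp9 ran from -0.21 to 1.06 and Dusp5 from -1.97 to 0.0506. Under Aza in dXist XEN Spry1 ran from -0.11 to 1.65, Etv4 from -0.32 to 0.88 and Dusp5 from -1.52 to 0.87. The differences of deletion effects ran from -1.39 to 0.0924 for Spred1, -0.20 to 1.54 for Spry1, -1.03 to 0.26 for Etv4 and -0.16 to 0.39 for Spry4.

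In dXist XEN library 3 Spry1 had 1 count, Etv4 16 and Spred1 24. Groups of 2 or 3 libraries leave 2 to 5 residual degrees of freedom.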
